A study of Mus musculus with 2 samples.

Results

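The 10 genes described here are 7 members of the 17-beta hydroxysteroid dehydrogenase family (Hsd17b1, Hsd17b2, Hsd17b3, Hsd17b4, Hsd17b10, Hsd17b11 and Hsd17b12) and the 3 steroid 5-alpha reductase genes (Srd5a1, Srd5a2 and Srd5a3). They were chosen by gene symbol, out of 55536 annotated genes, by a rule that uses no measured value, although earlier results of these data were known when the genes were listed. Their RNA was measured in the adrenal gland of 14-day-old male B6CASTF1/J mice, the first-generation hybrids of C57BL/6J and CAST/EiJ. The samples formed 1 group of 2 total RNA libraries, biological replicates 1 and 2, prepared with a directional kit from 300 ng of RNA and with ERCC spike-in RNAs added. The labels carry the wording "3x Males" without explaining it, and both tissue samples refer to the same donor record. The pool number of the males is alike in the library descriptions and different in the tissue descriptions, so whether the SD spans separate animals is not known. With a single group there was no contrast and no test, and differences are read against the spread between the replicates.

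A 17-beta hydroxysteroid dehydrogenase converts a keto group at carbon 17 of a steroid to a hydroxyl group or back, which switches androgens and oestrogens between weak and strong forms. Several enzymes that carry the name act mainly on other substrates, such as fatty acyl chains in peroxisomes or the endoplasmic reticulum. A 5-alpha reductase saturates the double bond of the A ring of testosterone, progesterone or corticosterone, and in the adrenal cortex it can act on the gland's own products.

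The most abundant of the listed family members were genes described below by roles other than sex steroid conversion. Which substrates their enzymes used in this tissue cannot be read from RNA levels. Hsd17b10, Hsd17b4 and Hsd17b12 each stood above 45 TPM (the transcript level after correction for length and depth) in both libraries and made up 76.6% ± 3.93 (SD, n = 2) of the TPM of the 10 genes. The sex steroid enzymes Hsd17b1 and Hsd17b3 stayed under 1 TPM in both. Srd5a2 was the most abundant 5-alpha reductase gene. Hsd17b2 differed 19.5-fold between the libraries, at 0.35 and 6.84 TPM in replicates 1 and 2, and no other member whose mean reached 1 TPM differed by 2-fold. Of the 10 genes, 7 reached 1 TPM in both libraries, against 54.2% of the 22015 nuclear protein-coding genes.

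The libraries held 32963248 and 36260745 expected counts. The 7 cortex markers summed to 2714 and 2832 TPM in replicates 1 and 2, and the 6 medulla markers to 1310 and 1340 TPM, so the labelled tissue was present in both. The libraries also differed in genes of other tissues. All 8 liver markers, from albumin (Alb) to Cyp2e1, were more than 2-fold higher in replicate 2, by 7.0-fold to 21-fold, and their sum was 326.7 and 5434 TPM in replicates 1 and 2. None of the 8 was at 0 in either library. The 7 lymph node markers were all lower in replicate 2, with sums of 147.6 and 9.05 TPM. The fat markers summed to 2803 and 2845 TPM, among them Ucp1, a gene of brown fat, at 723.6 and 861.0 TPM. The part of fat RNA in the levels given below was not tested. None of the 6 kidney markers reached 1 TPM, and 2 of them were at 0 in both libraries. In bulk tissue, fewer cells of a type and less RNA per cell cannot be told apart.

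**Figure D1:**
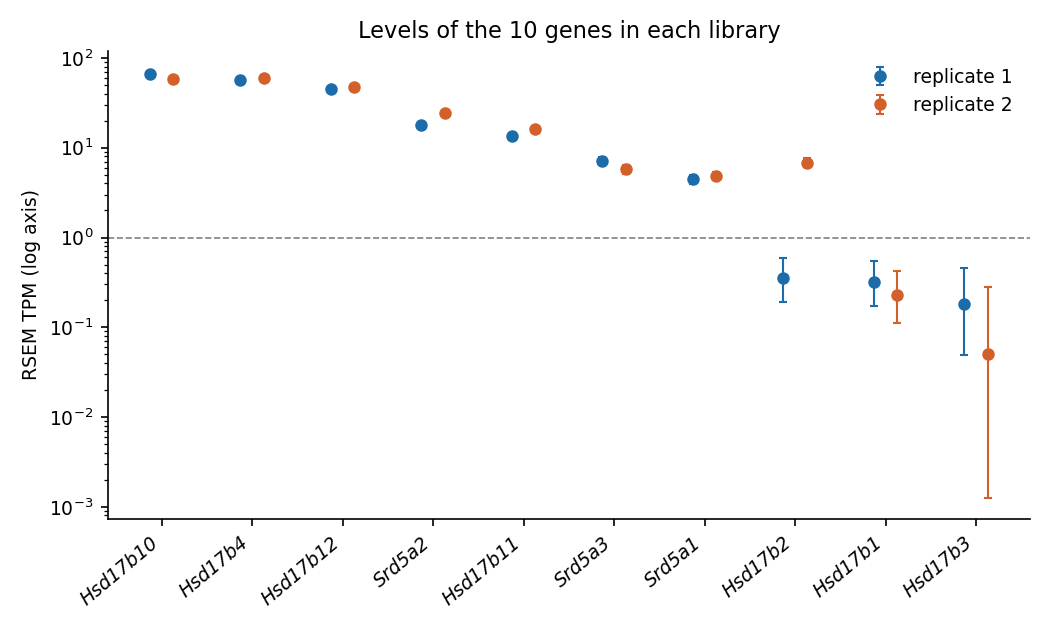
RSEM TPM of the 10 genes on a log axis, with a point for each library, bars for the 95% Poisson counting interval (hidden by the point where short) and a dashed line at 1 TPM. Hsd17b10, Hsd17b4 and Hsd17b12 lie between 45.0 and 66.7 TPM, and Hsd17b2 lies at 0.35 and 6.84 TPM.

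Hsd17b10 encodes a mitochondrial dehydrogenase of isoleucine breakdown that is also a subunit of mitochondrial RNase P, the enzyme that cuts tRNAs out of mitochondrial transcripts. The gene lies at chrX:152001845-152004442 on the plus strand (mm10). It read 66.7 and 57.6 TPM in replicates 1 and 2, from 1893 and 1773 expected counts, a mean of 62.1 ± 6.41 TPM (SD, n = 2). It stood above 96.7% of nuclear protein-coding genes. Its level was 1.16-fold higher in replicate 1, a difference small beside the 2-fold mark.

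The partners of Hsd17b10 in both of its roles were present. All 8 genes of isoleucine breakdown reached 1 TPM in both libraries, beside 54.2% of all nuclear protein-coding genes. None of the 8 passed 2-fold between the libraries, beside 5.89% of all genes whose mean reached 1 TPM. The highest were Echs1, an enoyl-CoA hydratase, at 142.8 and 154.2 TPM, and Dld, the dihydrolipoamide dehydrogenase, at 121.1 and 116.9 TPM. Acat1, the thiolase that ends the pathway, read 74.3 and 85.8 TPM. The RNase P partners were far less abundant than Hsd17b10. Trmt10c, the methyltransferase subunit, read 5.96 and 6.30 TPM, and 1110008L16Rik, which RefSeq names Prorp, the nuclease subunit, read 4.53 and 4.76 TPM. Elac2, which trims the other end of tRNAs, read 12.7 and 10.8 TPM.

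The share of Hsd17b10 reads given to its coding transcript depended on the quantification. The annotation holds 4 transcripts of the gene. Hsd17b10-201, the coding form with 6 exons and 783 coding bases, and Hsd17b10-204, a processed transcript with no annotated coding sequence, share 872 bases and differ only at their start. The Hsd17b10-201 form begins with a 90-base exon, and the Hsd17b10-204 form begins inside the first intron of Hsd17b10-201 and runs into exon 2. The sequences below show both junctions into exon 2, with the bases of exon 2 in lower case. In Hsd17b10-201 the capitals are the coding part of exon 1 (chrX:152001908-152001934), and in Hsd17b10-204 they are bases of the first intron (chrX:152002251-152002277). The third sequence shows Hsd17b10-202, a coding form that differs from Hsd17b10-201 by a 30-base insert before exon 4, in capitals (chrX:152003623-152003652). All are written in the direction of transcription.
Hsd17b10-201: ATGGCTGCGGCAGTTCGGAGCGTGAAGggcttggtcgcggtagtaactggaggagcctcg
Hsd17b10-204: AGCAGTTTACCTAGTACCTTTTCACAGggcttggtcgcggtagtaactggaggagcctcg
Hsd17b10-202: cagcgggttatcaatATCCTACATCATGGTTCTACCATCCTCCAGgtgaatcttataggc

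Of the gene's TPM, RSEM placed 90.9% in replicate 1 and 95.5% in replicate 2 on Hsd17b10-201, and 7.05% and 3.77% on Hsd17b10-204. The deposited kallisto values placed 50.1% and 53.3% on Hsd17b10-201 and 47.6% and 46.0% on Hsd17b10-204. In reads, Hsd17b10-204 held 139.5 and 69.8 counts by RSEM and 885.2 and 803.2 counts by kallisto. The replicates thus differed by far less than the quantifications did. The forms have 844 words of 31 bases in common, 88 are in Hsd17b10-201 and not in Hsd17b10-204, and 127 are in Hsd17b10-204 and not in Hsd17b10-201, so reads could be told apart only at the start of the transcripts. The insert form Hsd17b10-202 was at 0 by RSEM in both libraries and had 0.303% of the kallisto TPM in replicate 1 and none in replicate 2. The level of the whole gene differed less between the quantifications than this division did. On a common scale over nuclear protein-coding genes, the kallisto to RSEM log2 ratio of the 7 detected members lay between -0.25 and 0.12.

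**Figure D2:**
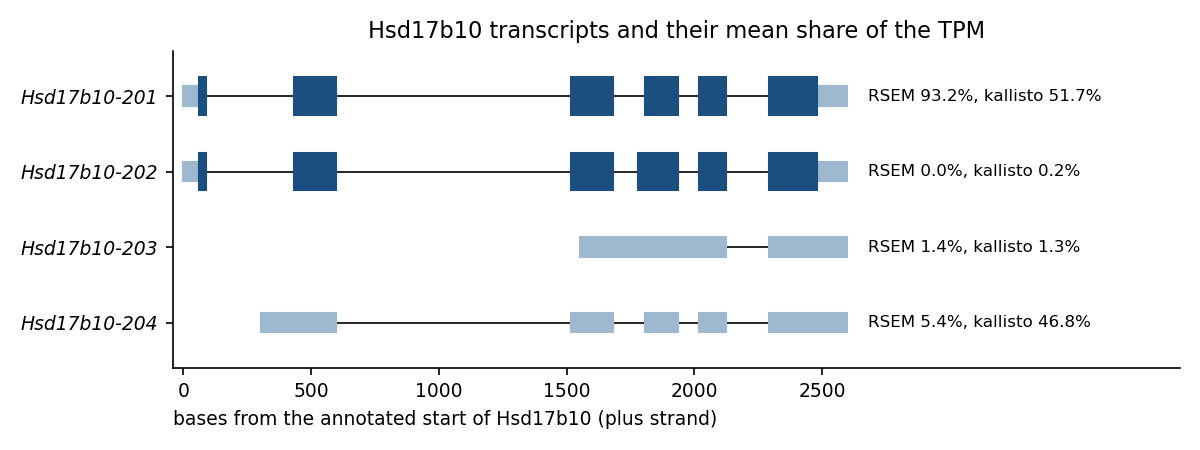
Exons of the 4 annotated Hsd17b10 transcripts by distance from the gene's start, with coding parts drawn taller, and the mean share of the gene's TPM on each by RSEM and by kallisto over the 2 libraries. The transcripts Hsd17b10-201 and Hsd17b10-204 differ only at their first exon, and Hsd17b10-204 has a mean share of 5.41% by RSEM and 46.8% by kallisto.

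Hsd17b4 encodes the peroxisomal D-bifunctional protein, which carries the hydratase and dehydrogenase steps of the beta-oxidation of very long and branched chains. The gene lies at chr18:50128201-50196269 on the plus strand. It read 57.3 and 59.8 TPM in replicates 1 and 2, with a mean of 58.6 ± 1.74 TPM (SD, n = 2). These values rest on 4572 and 5423 expected counts, the most of the 10 genes. The ranges of Hsd17b4 and Hsd17b10 overlapped, and their order cannot be given: RSEM put Hsd17b10 higher by the mean and kallisto put Hsd17b4 higher. The log2 ratio of Hsd17b4 to Hsd17b10 was -0.08 ± 0.19 (SD, n = 2) by RSEM and 0.04 by kallisto. Between the libraries Hsd17b4 differed by a log2 ratio of 0.06, replicate 2 over replicate 1, and by -0.02 when scaled to the spike-ins, so its direction depended on the scaling.

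Genes of peroxisomal beta-oxidation were mostly detected, 11 of 12, beside 54.2% of all nuclear protein-coding genes. Scp2, which carries the thiolase for branched chains, read 90.3 and 129.3 TPM. Abcd3, a transporter into the peroxisome, read 36.5 and 45.5 TPM. The list held 3 genes past 2-fold among its 12, all higher in replicate 2. Of all nuclear protein-coding genes whose mean reached 1 TPM, 5.89% were past 2-fold in either direction and 3.37% towards replicate 2. The 3 listed genes were Acox2, an oxidase for bile acid precursors and branched chains, at 0.59 and 8.20 TPM, Acaa1b, a thiolase, at 4.42 and 16.9 TPM, and Abcd2, a transporter, at 1.52 and 3.6 TPM. The liver markers moved the same way, with summed TPM of 326.7 and 5434, and their part in these differences was not tested.

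Hsd17b12 encodes the 3-ketoacyl-CoA reductase of fatty acid elongation in the endoplasmic reticulum. The gene lies at chr2:94032689-94157964 on the minus strand. It read 45.0 and 48.1 TPM in replicates 1 and 2, from 2657 and 3063 expected counts, with a mean of 46.6 ± 2.15 TPM (SD, n = 2). Both values lay under the lower Hsd17b4 value of 57.3 TPM. The 3 highest of the other elongation genes stood above it in both libraries by RSEM. They were Tecr, the reductase of the last step, at 90.5 and 100.3 TPM, Elovl5, an elongase of polyunsaturated chains, at 75.8 and 93.6 TPM, and Hacd3, a dehydratase, at 47.6 and 51.6 TPM. By kallisto Hacd3 stood below Hsd17b12, at 67.0 and 72.0 TPM beside 73.2 and 75.8 TPM, so the order of this pair depended on the quantification. Of the 12 elongation genes 9 were detected, beside 54.2% of all nuclear protein-coding genes. Only Elovl2, an elongase of longer polyunsaturated chains, was past 2-fold among the 10 whose mean reached 1 TPM, at 0.71 and 12.0 TPM, a count near the 5.89% of all such genes. The part of liver RNA in that difference was not tested.

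Hsd17b11 encodes a dehydrogenase found on lipid droplets that can act on androstanediol. The gene lies at chr5:103989762-104021919 on the minus strand. It read 13.6 and 16.3 TPM in replicates 1 and 2, from 775 and 1008 expected counts, with a mean of 15 ± 1.96 TPM (SD, n = 2). Its paralogue Hsd17b13, a second lipid droplet enzyme known mainly from liver, lies 12352 bases away on the same strand. Hsd17b13 read 1.03 and 22.0 TPM in replicates 1 and 2, a 21.4-fold difference, while Hsd17b11 differed 1.2-fold. The neighbouring genes therefore had the opposite order in the 2 libraries. Other lipid droplet genes were abundant, with Pnpla2, the triglyceride lipase, at 438.8 and 348.0 TPM, Cidea at 395.8 and 377.8 TPM and Plin1, the droplet coat protein of fat cells, at 172.1 and 194.1 TPM. Cidea and Plin1 are also among the 5 fat markers. In this list of 11, only Cideb, a droplet protein of liver, passed 2-fold, at 0.46 and 5.97 TPM, a count near the 5.89% of all genes whose mean reached 1 TPM. For Cideb and Hsd17b13, too, the part of liver RNA was not tested.

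Hsd17b1, Hsd17b2 and Hsd17b3 were the lowest of the 10 by mean level, although Hsd17b2 in replicate 2 stood above Srd5a1 and Srd5a3. The enzymes of these 3 genes convert sex steroids. Those of Srd5a1 and Srd5a2 can also act on testosterone, and both genes stood higher, at means of 4.67 and 21.3 TPM. Hsd17b1, which reduces oestrone to oestradiol, lies at chr11:101078411-101080527 on the plus strand and read 0.32 and 0.23 TPM in replicates 1 and 2, from 13 and 10 counts. Hsd17b3, the enzyme of testicular Leydig cells that reduces androstenedione to testosterone, lies at chr13:64058266-64089230 on the minus strand. It read 0.18 and 0.05 TPM, from 4 counts (exact 95% Poisson interval 1.09 to 10.2) and 1 count (0.0253 to 5.57). Such intervals cover counting error only. At this depth the Hsd17b3 levels of the libraries could not be told apart, and kallisto listed the gene at 0 in replicate 2.

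Hsd17b12 stood 250.2-fold above its relative Hsd17b3 in replicate 1 and 961.6-fold in replicate 2, and these ratios carry the counting error of the few Hsd17b3 reads. The testis markers, listed because Hsd17b3 is a Leydig cell gene, summed to 3.57 and 3.46 TPM. Only Insl3, a Leydig cell hormone, reached 1 TPM in both libraries among those 6, at 2.62 and 2.15 TPM, and Tnp1 was at 0 in both. Of 11 genes of the sex steroid route that were found, 8 were detected, beside 54.2% of all nuclear protein-coding genes. Those of the route's early steps were abundant. Star, the cholesterol carrier of mitochondria, read 1756 and 2099 TPM, Hsd3b1 read 1680 and 1743 TPM, and Cyp11a1, the side chain cleavage enzyme, read 762.4 and 834.7 TPM. Named for their place in the route after their values were seen, Cyp17a1, which opens the way from progestogens to androgens, read 2.82 and 3.25 TPM, and Cyp19a1, the aromatase that makes oestrogens, was listed at 0 by RSEM in both libraries.

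Hsd17b2 encodes the enzyme of the opposite direction, which oxidises testosterone and oestradiol to weaker forms, and lies at chr8:117701904-117759027 on the plus strand. It had 14 counts in replicate 1 (interval 7.65 to 23.5) and 294 in replicate 2 (261.4 to 329.6). The 19.5-fold ratio of its TPM had a counting interval of 11.5 to 36.2, and kallisto gave 18.9-fold. The intervals of the counts were far apart. Among 12535 nuclear protein-coding genes whose mean reached 1 TPM, 89 had a higher ratio of replicate 2 to replicate 1. Of the 8 members above that mean 1 passed 2-fold, beside 5.89% of all such genes in either direction and 3.37% towards replicate 2. Of the 6 members whose mean reached 5 TPM, 0 passed it, beside 2.75% of genes, so these counts are no result about the members.

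The Hsd17b2 difference lay within the range of the liver markers, 7.0-fold to 21-fold. The 8 liver markers had a median fold of 17.0 and a summed fold of 16.6. Per 1000 TPM of summed liver markers, a measure chosen after the data were seen, Hsd17b2 was at 1.07 and 1.26 TPM in replicates 1 and 2. On that same measure Hsd17b4 was at 175.5 and 11 and Srd5a1 at 13.6 and 0.902. For every gene the measure only restates its ratio between the libraries beside that of the liver sum. It therefore cannot show where the RNA of a gene came from. The part of liver RNA in the Hsd17b2 difference was not tested. The ratio of Hsd17b11 to Hsd17b2 was 38.8-fold in replicate 1 and 2.39-fold in replicate 2, so no single value describes the pair in this tissue.

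Among 6 further enzymes with 17-beta dehydrogenase activity, 5 had a mean that reached 1 TPM. Of these, 3 differed by more than 2-fold, all higher in replicate 2, beside 3.37% of all such genes in that direction. Akr1c6, an aldo-keto reductase with that activity, read 0.23 and 14.5 TPM in replicates 1 and 2, from 10 and 664 expected counts. Hsd17b6, a retinol dehydrogenase relative that oxidises androstanediol, read 0.15 and 2.09 TPM, from 6.28 and 90.7 expected counts. The other was Hsd17b13, given above. Per 1000 TPM of liver markers, Hsd17b13 was at 3.15 and 4.05, Hsd17b6 at 0.459 and 0.385 and Akr1c6 at 0.704 and 2.68, and the part of liver RNA was not tested for these either. H2-Ke6, which RefSeq lists with the synonym Hsd17b8 and which serves mitochondrial fatty acid synthesis, was level at 56.5 and 55.8 TPM, next to Hsd17b4 and Hsd17b10.

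**Figure D3:**
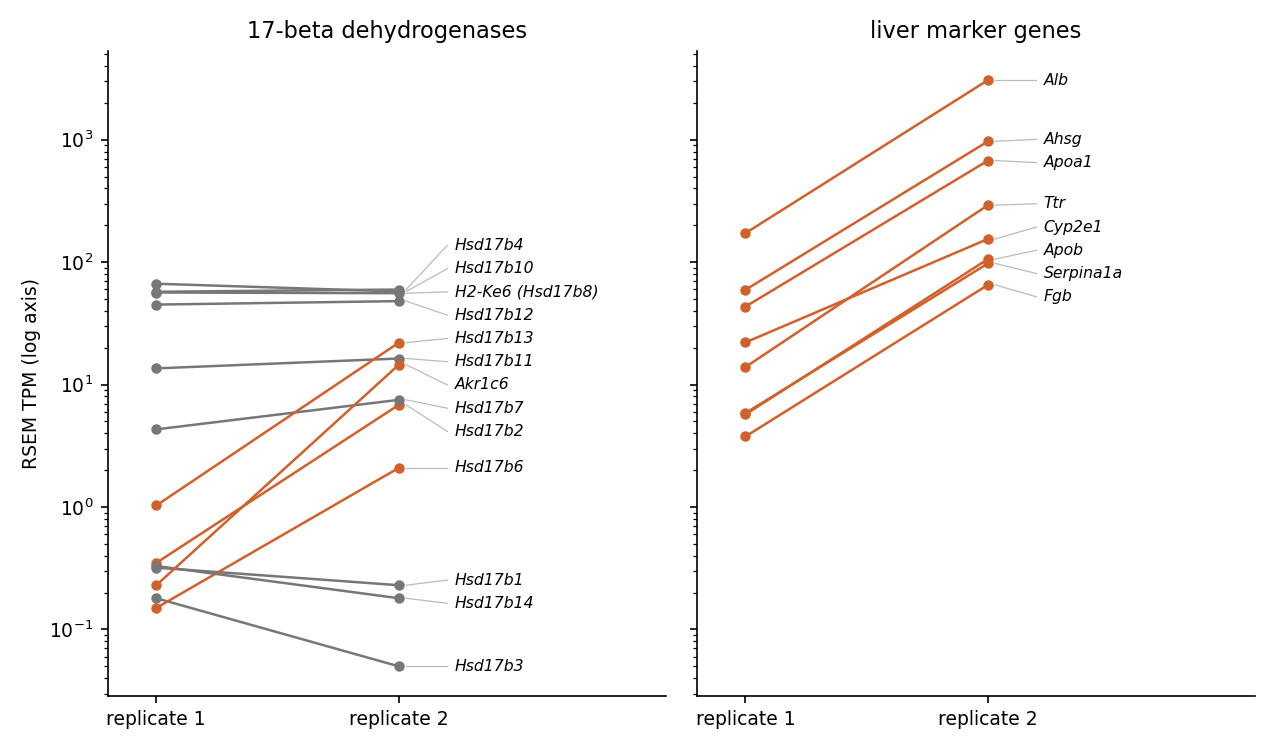
RSEM TPM in replicates 1 and 2 on a log axis, joined by a line for each gene, for the 7 members and 6 further 17-beta dehydrogenases (left) and the 8 liver markers (right); genes whose mean reached 1 TPM and whose libraries were more than 2-fold apart are coloured. Hsd17b2, Hsd17b6, Hsd17b13 and Akr1c6 are 13.9-fold to 63.2-fold higher in replicate 2 and the liver markers 7.0-fold to 21-fold. The ends of the first range, Hsd17b6 and Akr1c6, rest on 6.28 and 10 expected counts in replicate 1. Hsd17b4, Hsd17b10, Hsd17b11, Hsd17b12 and H2-Ke6 differ by less than 2-fold.

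Srd5a2, the 5-alpha reductase gene known from the male reproductive tract, held most of the TPM of the 3 reductase genes, 61.1% in replicate 1 and 69.7% in replicate 2. The gene lies at chr17:74016955-74047916 on the minus strand. It read 18.0 and 24.6 TPM in replicates 1 and 2, from 891.3 and 1318 expected counts, with a mean of 21.3 ± 4.63 TPM (SD, n = 2). Replicate 2 was 1.36-fold higher, with a counting interval of 1.25 to 1.49, the largest difference among the 6 members whose mean reached 5 TPM. A processed transcript on the same strand, CT025731.1, overlaps the gene, with 6.34 and 6.49 TPM. Of the 31-base words of Srd5a2-201, 7.37% also occur in it, so some reads could be assigned to either. By kallisto Srd5a2 had 1103 and 1630 counts in replicates 1 and 2, more than by RSEM, and the cause was not tested.

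Srd5a1, the widely expressed 5-alpha reductase gene, lies at chr13:69573449-69611442 on the minus strand. It read 4.44 and 4.90 TPM in replicates 1 and 2, from 364.0 and 427.4 expected counts, with a mean of 4.67 ± 0.325 TPM (SD, n = 2). It was 4.51-fold lower than Srd5a2, with a log2 ratio of -2.17 ± 0.22 (SD, n = 2) by RSEM and -2.45 by kallisto, and lower in both libraries. Nsun2, an RNA methyltransferase gene, overlaps Srd5a1 on the opposite strand with 23.7 and 23.6 TPM. On the same strand, Srd5a1 overlaps Gm17108, listed at 0.03 TPM in both libraries, in which 17.1% of the 31-base words of Srd5a1-202 also occur, against 7.37% for Srd5a2-201 in CT025731.1. How this sharing bears on the ratio of Srd5a1 to Srd5a2 was not tested. The kit keeps the strand, but whether the authors' counting used it is not given in the sources used here.

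Srd5a3 encodes an enzyme that reduces polyprenol to dolichol, the lipid on which the sugar chains of glycoproteins are built. The gene lies at chr5:76140271-76155504 on the plus strand. It read 7.05 and 5.77 TPM in replicates 1 and 2, from 368 and 326 expected counts, with a mean of 6.41 ± 0.905 TPM (SD, n = 2). It was 1.22-fold higher in replicate 1, whereas Srd5a1 and Srd5a2 were higher in replicate 2. The 11 dolichol and N-glycan genes were all detected, beside 54.2% of all nuclear protein-coding genes. Of the 11, 9 were lower in replicate 2, as were 7516 of the 11942 detected nuclear protein-coding genes. None was past 2-fold, beside 5.89% of all genes whose mean reached 1 TPM. Their median log2 ratio was -0.11 beside -0.07 for all nuclear protein-coding genes. The highest were Dpm1, the dolichol phosphate mannose synthase, at 33.6 and 31.3 TPM, its partner Dpm3 at 28.4 and 31.4 TPM, and Alg2, a mannosyltransferase, at 30.7 and 25.1 TPM.

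Of 5 genes for enzymes that work beside the 5-alpha reductases on progesterone and corticosteroids, 4 were detected. The share over all nuclear protein-coding genes was 54.2%. Among the 5, Akr1c18 and Akr1d1 were more abundant than the reductases. Of the 4 whose mean reached 1 TPM, 3 passed 2-fold by RSEM, all higher in replicate 2, beside 3.37% of all such genes in that direction. Akr1d1, the 5-beta reductase that reduces the same double bond to the other configuration, read 60.2 and 77.3 TPM in replicates 1 and 2. That was 2.12-fold above the 3 5-alpha reductase genes summed, which read 29.5 and 35.2 TPM, a log2 ratio of 1.08 ± 0.07 (SD, n = 2). Akr1d1 was 1.28-fold higher in replicate 2, and the part of liver RNA in its level was not tested. Akr1c18, a progesterone-converting enzyme and a marker of the X-zone of the inner cortex, read 348.2 and 700.4 TPM, just past 2-fold at 2.01-fold by RSEM and not past it at 1.97-fold by kallisto. Hsd11b1, which regenerates corticosterone, read 7.04 and 22.3 TPM, and Akr1c14, a 3-alpha dehydrogenase that takes up 5-alpha reduced steroids, read 1.13 and 5.78 TPM. The summed TPM of the 3 X-zone markers was 361.2 and 718.1, and the part of this zone or of liver RNA in these differences was not tested.

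**Figure D4:**
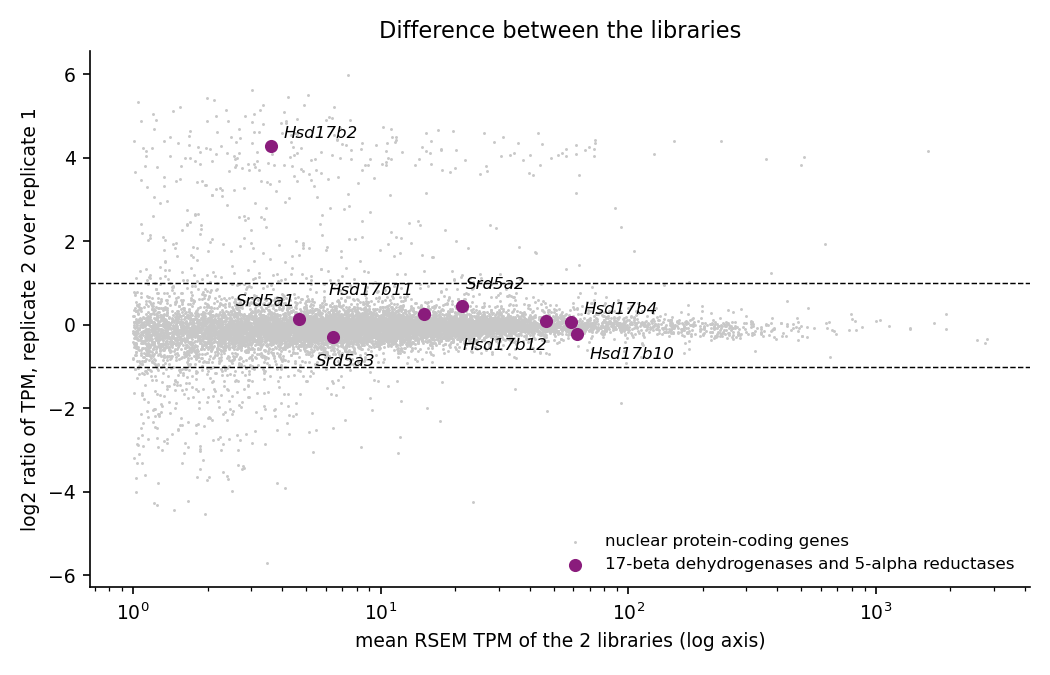
Log2 ratio of TPM, replicate 2 over replicate 1, against mean RSEM TPM on a log axis, for nuclear protein-coding genes whose mean reached 1 TPM (grey) and the 8 members above that mean (purple), with dashed lines at 2-fold. The 6 members above 5 TPM lie between -0.29 and 0.45, and Hsd17b2 lies at 4.29.

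The 8 members whose mean reached 1 TPM are thus 7 genes with small differences and Hsd17b2. For the 6 whose mean reached 5 TPM the median size of the log2 ratio was 0.24, beside 0.13 for all 8314 such genes. In the order of the levels, the ranges of the 2 libraries overlapped for 2 neighbouring pairs, Hsd17b10 with Hsd17b4 and Srd5a1 with Hsd17b2. The ranges of the remaining neighbours did not overlap, but the counting intervals of 3 such pairs did within a library. They were Hsd17b2 and Hsd17b1 in replicate 1, Hsd17b1 and Hsd17b3 in both libraries, and Srd5a3 and Srd5a1 in replicate 2, so the order of these pairs is less certain.

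The 10 genes have 36 annotated transcripts, of which 25 had a TPM above 0 in at least 1 library by RSEM. By RSEM, 8 of the 10 genes had over 90% of their TPM on 1 transcript, and by kallisto 3 did, namely Hsd17b1, Hsd17b11 and Srd5a2. Srd5a2 and Hsd17b1 have a single annotated transcript. The leading transcript was the same by both quantifications for 9 genes, Hsd17b3 with its few reads being the exception. Hsd17b12-201 had 99.3% and 98.8% by RSEM and 90.2% and 89.4% by kallisto, which gave 9.18% and 8.01% to the processed transcript Hsd17b12-205, listed at 0 by RSEM. Hsd17b4-201 had 93% and 98.2% by RSEM and 78.9% and 83.2% by kallisto. Srd5a1-202 had 97.1% and 94.9% by RSEM and 88.6% and 79.9% by kallisto. Each of these genes has 1 annotated coding transcript, the leading one, so the remaining share could only fall on noncoding transcripts. In Srd5a3, the coding form Srd5a3-203 was at 0 by RSEM and had 12.8% and 16.1% by kallisto, and Srd5a3-201, with 990 coding bases against 618, led by both at 81.6% and 86.3% by RSEM. Hsd17b11-201 was the steadiest of the genes with several transcripts, at 97.1% and 98.7% by RSEM and 97.7% and 98.4% by kallisto.

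**Figure D5:**
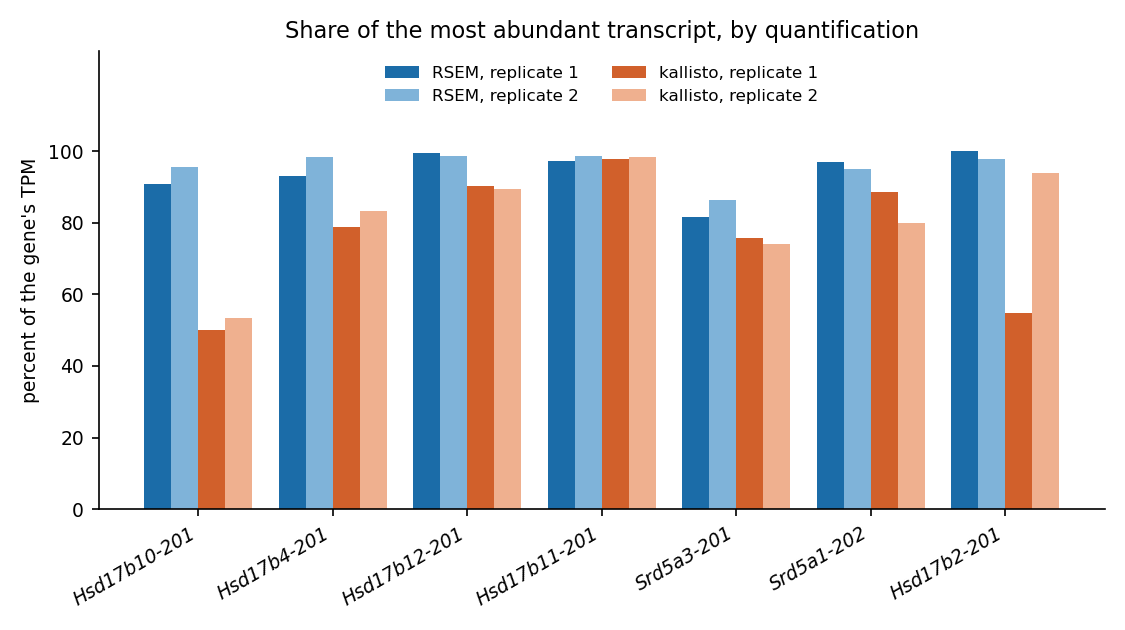
Percent of each gene's TPM on its leading RSEM transcript, with a bar for each library and quantification, for the 7 genes with several transcripts other than Hsd17b3. Hsd17b10-201 shows the widest gap of the detected genes, 90.9% and 95.5% by RSEM against 50.1% and 53.3% by kallisto.

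Promoters of 7 of the 10 genes were found in the RefSeq table (GRCm38.p6), each 300 bases long, from 250 before to 50 after the gene's start. They ranged widely in CpG dinucleotides, the sites of DNA methylation that are dense in promoters of broadly expressed genes. The Hsd17b3 promoter held 3, those of Hsd17b10 and Srd5a2 15 each, Hsd17b11 18, Hsd17b12 23, Srd5a1 24 and Srd5a3 26, beside a median of 7 over 32851 promoters. Hsd17b3 was the only one of the 7 under that median. Hsd17b1, Hsd17b2 and Hsd17b4 had no promoter entry. Hsd17b1 and Hsd17b2 were, with Hsd17b3, the lowest members by mean level, so no link between CpG number and level can be drawn. The upstream parts of 3 promoters are shown because they span this range, with each CpG in capitals, in the direction of transcription. The stretches end before the transcript start in both RefSeq and GENCODE. They are chr13:64089231-64089451 (minus strand) for Hsd17b3 with 1 CpG, chr17:74047917-74048110 (minus strand) for Srd5a2 with 6 and chr5:76140023-76140270 (plus strand) for Srd5a3 with 19.
Hsd17b3: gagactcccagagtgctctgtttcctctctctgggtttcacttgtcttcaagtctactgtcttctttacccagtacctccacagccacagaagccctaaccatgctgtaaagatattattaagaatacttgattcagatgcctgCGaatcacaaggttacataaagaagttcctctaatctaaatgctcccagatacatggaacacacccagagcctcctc
Srd5a2: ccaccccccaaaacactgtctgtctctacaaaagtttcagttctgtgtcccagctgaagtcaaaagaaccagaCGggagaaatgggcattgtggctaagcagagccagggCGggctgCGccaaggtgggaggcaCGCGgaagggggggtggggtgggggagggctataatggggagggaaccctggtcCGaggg
Srd5a3: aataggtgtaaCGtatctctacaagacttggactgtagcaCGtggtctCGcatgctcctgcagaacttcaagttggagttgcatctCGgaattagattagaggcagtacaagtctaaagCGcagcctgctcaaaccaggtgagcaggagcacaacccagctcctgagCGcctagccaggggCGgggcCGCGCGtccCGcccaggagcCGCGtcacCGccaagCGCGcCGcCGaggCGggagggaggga

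The 7 promoters were searched on both strands for AGGTCA, a core that steroidogenic factor 1 and other nuclear receptors bind, and for TGACGTCA, the cyclic AMP response element. Neither was found in any of the 7 windows. Of all promoters in the table, 16.3% held the former and 1.79% the latter.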

How the data were processed

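Total RNA of 2 adrenal gland libraries of 1 group was analysed. The authors deposited expected counts and TPM for each gene and transcript, made from transcriptome alignments to mm10 with GENCODE M21, per the deposited file list, in columns that RSEM writes, per the file headers. A second deposited quantification holds estimated counts and TPM of transcripts in columns that kallisto writes, and it was summed here to genes. The aligner, strand setting and versions of these tools were not given in the sources used here. Percent of gene TPM on each transcript, deposited by the authors, was recomputed from TPM. Credibility bounds of TPM, a signal deposited by the authors, were not used, nor were other deposited values such as effective lengths. CAST reads were aligned to a C57BL/6J reference, an effect that was not measured.

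TPM was the unit of all levels. Members were joined by gene identifier and symbol. The members and lists were chosen with earlier results of these data known. From each pathway list the 3 highest genes by mean TPM and each gene past 2-fold whose mean reached 1 TPM were named, except for withheld genes, which are not reported here. Hsd17b8 was found as H2-Ke6 through RefSeq synonyms, and Sts was not analysed here. Detected means at least 1 TPM in both libraries. Count intervals are 95% exact Poisson intervals, and ratio intervals follow from the counts. For an alternative scaling, expected counts were rounded and TMM factors taken from edgeR 4.0.16 in R 4.3.3. The software was matplotlib 3.10.9, scipy 1.17.1, numpy 2.4.6 and pandas 2.3.3 under Python 3.11.15. The steps were tested on simulated data.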

Additional observations from a re-analysis of the deposited data

How the results depend on the processing

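The count of 7 detected members did not change at a minimum of 0.5 or 2 TPM or with kallisto, and with single libraries it was 7 to 8. Among the 8 members whose mean reached 1 TPM, Hsd17b2 was the 1 past 2-fold in 6 alternative scalings and quantifications; on the log2(TPM + 1) scale its difference was 2.54. The share of all genes past 2-fold, 2.75% at a mean of 5 TPM, was 5.89% at a mean of 1 TPM and 12.2% among genes above 0 in both libraries. The log2 ratio of Srd5a1 to Srd5a2 was -2.45 by kallisto and that of Hsd17b12 to Hsd17b3 was 7.43 by posterior mean TPM, and the number of genes with over 90% on 1 transcript was 3 by kallisto; the cause was not tested. In single libraries the log2 ratios ranged from -2.33 to -2.02 (Srd5a1 to Srd5a2), -0.67 to -0.24 (Srd5a1 to Srd5a3), 7.97 to 9.91 (Hsd17b12 to Hsd17b3), 1.26 to 5.28 (Hsd17b11 to Hsd17b2) and -0.22 to 0.05 (Hsd17b4 to Hsd17b10), and the genes over 90% numbered 8 to 9. Hsd17b4 was the only member whose direction between the libraries turned, with spike-in scaling. The kallisto ratio of Hsd17b12 to Hsd17b3 was not run because replicate 2 was at 0. Counts under 20 limit Hsd17b1, Hsd17b3 and Hsd17b2 in replicate 1. They also limit Hsd17b6 and Akr1c6 in replicate 1. No paired analysis was possible because the labels give 1 group.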

Other observations

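The nearest coding genes of the members were also read, and the pairs named here were chosen after their values were seen. Ribc1, on the opposite strand 140 bases from the abundant Hsd17b10, read 0.41 and 0.58 TPM in replicates 1 and 2. The reverse held at Hsd17b1, which was under 1 TPM in both libraries. There Naglu, a lysosomal glucosaminidase gene 739 bases away on the same strand, read 7.89 and 8.31 TPM. Xdh, the xanthine dehydrogenase gene 66759 bases from Srd5a2, read 67.0 and 56.8 TPM.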
